A study of Mus musculus with 8 samples.

Results

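Red blood cells carry oxygen bound to iron, and the precursors that build haemoglobin hold a set of enzymes against peroxides and superoxide. The results below describe 10 such genes, chosen by name: the enzymes Cat, Prdx2, Gpx1, Gpx4, Sod1 and Txnrd1, the glutathione synthesis genes Gclc and Gclm, the cystine transporter gene Slc7a11, and Nfe2l2, which encodes the transcription factor Nrf2. All 10 were matched to an Ensembl ID in the count tables, which hold 37620 gene IDs, and all 10 passed the filter on low counts that left 15355 genes tested. Superoxide dismutase (Sod1) turns superoxide into hydrogen peroxide, which catalase (Cat), peroxiredoxin 2 (Prdx2) and glutathione peroxidase 1 (Gpx1) remove. Glutathione peroxidase 4 (Gpx4) reduces lipid peroxides in membranes. Gpx1, Gpx4 and thioredoxin reductase 1 (Txnrd1) contain selenocysteine. Nrf2 is held low by Keap1 in resting cells. Under oxidative stress it escapes that control, pairs with small Maf proteins and binds antioxidant response elements near genes such as Gclc, Gclm, Txnrd1 and Slc7a11.

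The cells were erythroid progenitors of C57BL/6 mice, purified by magnetic sorting from E14.5 fetal livers, transduced, and kept for 24 h in medium with erythropoietin. Every group shared this strain, stage and culture. Bloodlinc, a long noncoding RNA, was targeted by 2 short hairpins with 1 library each (Bloodlinc sh1 and sh2), with 1 control hairpin library (Bloodlinc shCTL). Hnrnpu, the gene of hnRNP U, a protein of the nucleus that binds RNA, was targeted in the same layout (hnRNPU sh1, sh2 and shCTL). A Bloodlinc overexpression vector and an empty vector had 1 library each. Total RNA without ribosomal RNA was sequenced in these 8 libraries. No label says that libraries came from separate cultures or animals. The p-values therefore rest on the spread between hairpin libraries of the same target, which may be technical or particular to a hairpin. That spread was pooled over genes and over both targets, so a gene's own 2 hairpins had little weight in its p-value.

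In 6 libraries the counts in genes ran between 23682993 and 34540691. The hnRNPU sh1 and sh2 libraries stood apart with 2931627 and 2612916 counts in genes. Of their uniquely placed counts, 89.7% and 86.6% lay outside genes, against 21.8% for hnRNPU shCTL. IDs absent from the annotation used here held 32.9% and 23.1% of their counts in genes, against 0.695% for hnRNPU shCTL. Their TMM factors, which rescale library size, were 0.577 and 0.972, against 1.13, so CPM in these libraries depend on that scaling. The targeted gene Hnrnpu was at 325 and 373 CPM (counts relative to TMM-scaled library size) with hnRNPU sh1 and sh2, against 588 CPM with hnRNPU shCTL. Hnrnpu was also at 290 CPM in Bloodlinc shCTL and at 674 CPM in the empty vector library. Both hnRNPU hairpin libraries thus lay within the range of the 3 controls. The adjusted p of Hnrnpu in the hnRNPU knockdown was 0.730 in edgeR's quasi-likelihood test. Bloodlinc itself was not analysed here. All 12 erythroid marker genes were detected in every library, with a summed level between 22846 and 101704 CPM. The defining macrophage markers summed to between 3.59 and 75.7 CPM and the hepatocyte markers to between 0.394 and 13.5 CPM. Megakaryocyte markers summed to between 52.9 and 119 CPM. Granulocyte markers varied more, as given beside the results of each knockdown.

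The 4 stretches of upstream sequence below are shown because they hold the letters of the antioxidant response element core, TGACNNNGC, where Nrf2 and small Maf proteins can bind. They come from the RefSeq windows on GRCm38.p6 that run from 250 bases before to 50 bases after an annotated start. Each is written 5′ to 3′ on the gene's strand, with the match to the core or to its reverse complement in capitals.
Nfe2l2, chr2:75704865-75704913, minus strand, match at -240 to -232: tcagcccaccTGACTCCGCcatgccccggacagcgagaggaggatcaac
Gclm, chr3:122245393-122245461, plus strand, match at -134 to -126: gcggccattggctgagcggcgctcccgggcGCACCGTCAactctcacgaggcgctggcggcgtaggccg
Txnrd1, chr10:82859084-82859152, plus strand, match at -92 to -84: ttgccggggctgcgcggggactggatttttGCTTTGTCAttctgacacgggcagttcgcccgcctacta
Sod1, chr16:90220676-90220744, plus strand, match at -56 to -48: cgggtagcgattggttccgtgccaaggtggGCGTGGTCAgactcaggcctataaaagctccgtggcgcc
The core was searched on both strands. It was found in 4 of the 14 windows that belong to 9 of the 10 genes, and in 12.4% of all 32851 windows. Gclc had no window and was not searched. Gpx4 and Txnrd1 have several windows, some of which overlap, so windows are not independent units. In Gclm, Txnrd1 and Sod1 the match lies on the strand opposite to the gene, and in Nfe2l2 on the gene's own strand. The GATA motif AGATAA, also searched on both strands, was in 0 of the 14 windows and in 11.2% of all windows. A match describes letters only, and nothing here measured binding.

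The peroxide-removing enzymes stood at the top of the 10 genes and near the top of the transcriptome. Per kilobase of exon, Gpx1 averaged 1723 ± 1221 TMM CPM over the 3 control libraries (SD, n = 3), and its level per length lay at percentile 99.9 of 14607 genes. Prdx2 averaged 495 ± 354, Gpx4 258 ± 272 and Cat 257 ± 95.1 on the same scale, at percentiles 99.6, 99.2 and 99.2. Gclc followed with 145 ± 56.2 and Gclm with 48.7 ± 25.0 CPM per kilobase. Sod1 averaged 28.3 ± 4.65, Txnrd1 22.9 ± 6.23 and Nfe2l2 19.5 ± 0.867 CPM per kilobase. Slc7a11 was lowest with 5.19 ± 2.58 CPM per kilobase, at percentile 65.3. Length here is the union of all annotated exons of a gene, with 3970 bases for Sod1 and 13922 for Slc7a11. The order of genes therefore depends on the annotation, and which transcripts were in use was not measured. Among neighbours in this order, Gpx1 was above Prdx2, Prdx2 above Gpx4, Cat above Gclc, Gclc above Gclm, Sod1 above Txnrd1 and Nfe2l2 above Slc7a11 in all 8 libraries. Gpx4 was above Cat in only 3 of 8 libraries, Gclm above Sod1 in 6 of 8, and Txnrd1 above Nfe2l2 in 3 of 8, so those neighbours have no fixed order.

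**Figure D1:**
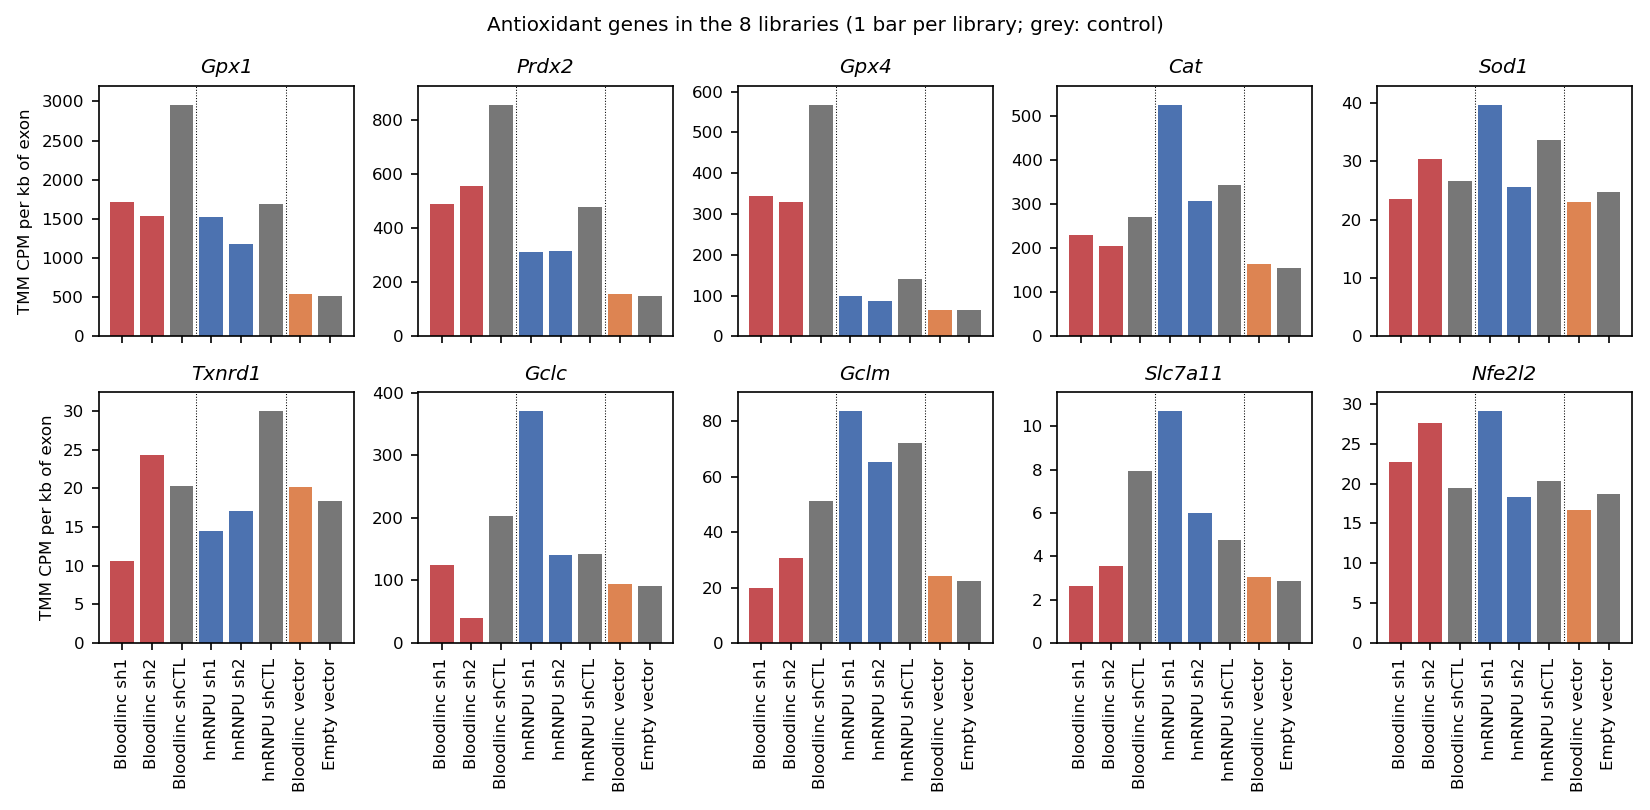
Level of each of the 10 genes in TMM-scaled CPM per kilobase of exon (vertical axis, own scale for each gene), 1 bar per library, with dotted lines between the 3 experiments and control libraries in grey. Gpx4 reaches 568 in Bloodlinc shCTL but 64.4 in the empty vector library, while Nfe2l2 stays between 16.7 and 29.1 in all 8.

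The 3 control libraries differed widely for the abundant enzymes. Gpx4 was at 244 CPM in hnRNPU shCTL, 111 CPM in the empty vector library and 980 CPM in Bloodlinc shCTL, so that its highest control stood 8.83 times above its lowest. Prdx2 and Gpx1 spanned 5.73-fold and 5.71-fold between controls. Nfe2l2 was the steadiest, between 70.8 and 77.3 CPM, a span of 1.09-fold. Sod1 (1.36-fold) and Txnrd1 (1.64-fold) also varied little, and the other 5 genes spanned between 2.21-fold and 3.22-fold. The controls belong to different experiments, 1 library each, so experiment and vector cannot be told apart. The tests below are therefore within an experiment, and positions against all 3 controls or the empty vector are given as descriptions. The summed erythroid markers moved with the peroxidases, at 87920 CPM in Bloodlinc shCTL, 63865 in hnRNPU shCTL and 22846 in the empty vector library. Their part in the spread was not tested. In bulk RNA, fewer cells of a type and less RNA per cell cannot be told apart.

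Ratios within a library depend on no scaling between libraries. Prdx2 per kilobase was between 0.206 and 0.360 times Gpx1 in all 8 libraries. For Gpx4 over Gpx1 the ratio grouped by experiment: it was 0.201 and 0.214 with Bloodlinc sh1 and sh2, against 0.192 with Bloodlinc shCTL. The same ratio was 0.0661 and 0.0748 with hnRNPU sh1 and sh2, against 0.0836 with hnRNPU shCTL, and 0.120 with the Bloodlinc vector, against 0.124 with the empty vector. Gclc over Gclm, the catalytic over the modifier subunit of the enzyme that starts glutathione synthesis, varied between hairpins of 1 target. It was 6.31 and 1.31 with Bloodlinc sh1 and sh2, against 3.96 with Bloodlinc shCTL. With hnRNPU sh1 and sh2 it was 4.42 and 2.16, against 1.96 with hnRNPU shCTL.

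**Figure D2:**
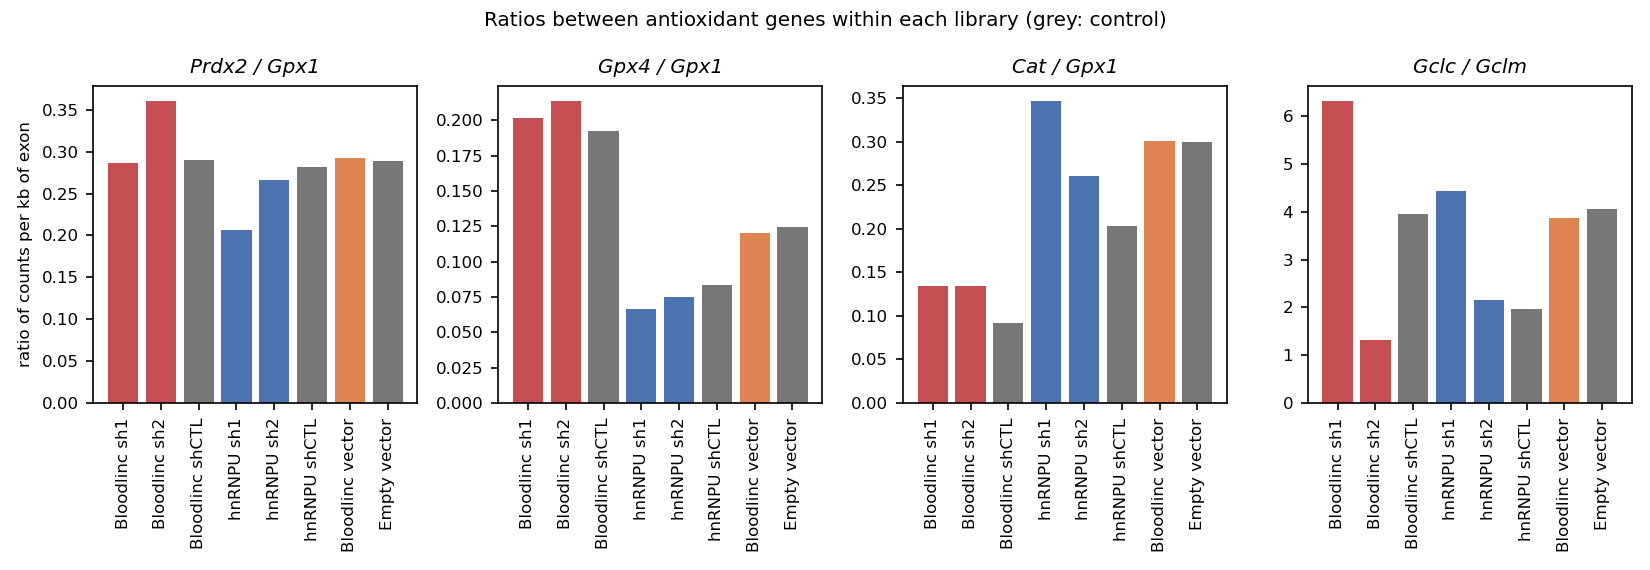
Ratios of counts per kilobase of exon between pairs of antioxidant genes within each library (vertical axes, linear, from 0), with control libraries in grey. Gpx4 over Gpx1 separates the experiments, and Gclc over Gclm separates Bloodlinc sh1 (6.31) from Bloodlinc sh2 (1.31).

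When Bloodlinc was targeted, most of these genes lay below the control hairpin, but none passed the test. The fitted log2 fold change was below 0 for 8 of the 10 genes, with a median of -0.73, while the median of all genes tested was 0.06 and 44.6% of them lay below 0. The SE of these values lay between 0.52 and 0.65 on the log2 scale, so a value that misses the threshold does not show that levels were equal. In edgeR's quasi-likelihood test with Benjamini-Hochberg adjustment over all genes tested, 0 of the 10 passed at 0.05, where 0.124% of all genes tested passed. At an unadjusted p under 0.05 there were 2 of the 10, and 3.99% of all genes tested. Both hairpins lay below the control for 7 of the 10, as they did for 30.7% of all genes. All 12 erythroid markers tested also had a fitted change below 0, with a median of -0.83 and 0 past the threshold. Their summed level was 50384 and 44544 CPM with Bloodlinc sh1 and sh2, against 87920 CPM with Bloodlinc shCTL, and its part in the lower antioxidant levels was not tested. Granulocyte markers were few here, and 9 of 10 had a fitted change below 0, with a median of -1.19 and 0 past the threshold. They summed to 43.2 and 54.6 CPM with Bloodlinc sh1 and sh2, against 104 CPM with Bloodlinc shCTL, and their part was not tested either. Globin Hbb-bs, the most abundant marker, was at 18251 and 18268 CPM, against 32232 CPM in the control.

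Slc7a11, which encodes the cystine importer of system xc-, had the lowest fitted value. It was at 36.4 and 49.4 CPM with Bloodlinc sh1 and sh2, against 110.7 CPM with Bloodlinc shCTL. It was the only one of the 10 genes with both hairpins more than 2-fold below the control, a position held by 2.66% of all genes tested. The fitted log2 fold change was -1.37 (SE 0.52), with an unadjusted p of 0.00852 and an adjusted p of 0.759 in edgeR. Its values overlapped those of other controls, since the empty vector library held 39.7 CPM.

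The glutathione synthesis genes were also low, with hairpins that lay far apart. Gclc was at 470 and 150.5 CPM with Bloodlinc sh1 and sh2, against 765 CPM with Bloodlinc shCTL. The fitted log2 fold change of Gclc was -1.30 (SE 0.59; unadjusted p = 0.0289, adjusted p = 1 in edgeR), and it was -2.32 without Bloodlinc sh1 and -0.70 without Bloodlinc sh2. Gclm was at 124.5 and 192 CPM with sh1 and sh2, against 323 CPM in the control, which gave a fitted value of -1.03 on the log2 scale (SE 0.57; adjusted p = 1 in edgeR). For Gclc the lower hairpin was sh2, and for Gclm it was sh1. Gclm shares exon with the pseudogene Gm6061 and with Gm17494, which had 0 counts in all 8 libraries, and its counts are uncertain to that extent.

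The peroxide-removing enzymes had both Bloodlinc hairpins close together and below the control. Gpx1 was at 2465 and 2224 CPM with sh1 and sh2, against 4264 CPM in the control, a log2 fold change of -0.86 (SE 0.65). Gpx4 was at 594 and 568 CPM, against 980 CPM (-0.75, SE 0.58). Prdx2 was at 1496 and 1696 CPM, against 2616 CPM (-0.71, SE 0.63). Cat was nearer its control, at 603 and 540 CPM, against 708 CPM (-0.31, SE 0.61). The adjusted p in edgeR was 1 for each of these 4 enzymes, and both hairpins of each lay above the empty vector library. Prdx2 shares 177 and 173 bases of exon with Rnaseh2a and Junb on the opposite strand, and whether counting used the strand is not given, so its counts are uncertain to that extent.

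Txnrd1, Sod1 and Nfe2l2 did not share this position. Txnrd1, which keeps thioredoxin reduced, was at 74.7 CPM with sh1 and at 172 CPM with sh2, on opposite sides of the 144 CPM in the control. Sod1 was at 93.6 and 121 CPM, on either side of 106.0 CPM in the control. Nfe2l2 was at 86.1 and 105.0 CPM with Bloodlinc sh1 and sh2, against 73.7 CPM with Bloodlinc shCTL. It was the only one of the 10 with both Bloodlinc hairpins above all 3 control libraries, as 10.9% of all genes tested were, and 0 of the 10 lay below all 3, as 11.3% of all genes did. Its log2 fold change was 0.38 (SE 0.55; adjusted p = 1 in edgeR), so the difference did not pass.

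**Figure D3:**
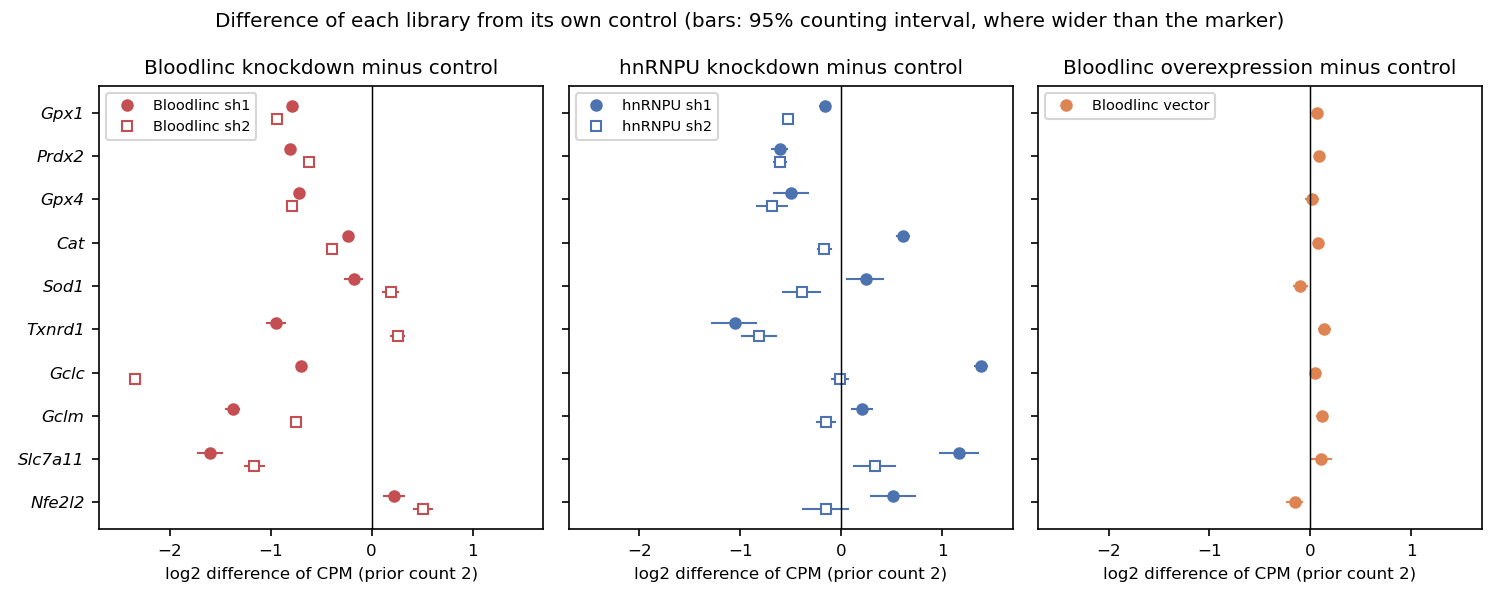
Log2 difference of each library from the control of its own experiment for the 10 genes (horizontal axis), with 95% exact intervals of the count ratio, which cover counting error only. Both Bloodlinc hairpins lie below 0 for 7 genes, the 2 hnRNPU hairpins lie on opposite sides of 0 for 5, and the overexpression differences stay between -0.15 and 0.14.

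When Hnrnpu was targeted, the 10 genes lay on both sides of the control and none passed. Fitted log2 fold changes were below 0 for 5 and above 0 for 5 (6 above with DESeq2's size factors or upper quartile scaling), with a median of 0.00, while the median of all genes tested was -0.09 and 53.4% of them lay below 0. Of the 10 genes, 0 passed, where 0.879% of all genes tested did, and 0 had an unadjusted p under 0.05, where 9.89% of all genes did. Both hairpins lay below the control for 4 of the 10 (42.3% of all genes), above it for 1 (28.6%), and on opposite sides for 5. Without hnRNPU sh1, 9 of the 10 fitted values were below 0, with a median of -0.28. The hnRNPU hairpin libraries held few counts, with between 173 and 4314 for these genes, so that the 95% counting intervals in the plot of differences are wider here. Those intervals do not cover the unlike share of counts outside genes, 89.7% and 86.6% with hnRNPU sh1 and sh2, against 21.8% with hnRNPU shCTL. Granulocyte markers moved with the hairpins: all 10 had a fitted change above 0, of which 3 passed and 7 did not, where 0.58% of all genes passed on the higher side. Their summed level was 9855 and 3628 CPM with hnRNPU sh1 and sh2, against 1698 CPM with hnRNPU shCTL, led by Ngp (log2 fold change 2.73, SE 0.68, adjusted p = 0.0151) and Ltf (2.71, SE 0.67, adjusted p = 0.0136). Without hnRNPU sh1 these were 1.63 and 1.42, with adjusted p = 1 for both in edgeR, and both calls were also lost without either Bloodlinc hairpin library. In all, the call was lost under 9 of 17 alternatives for Ngp and under 10 of 17 for Ltf. The part of these markers in the values of the 10 genes was not tested.

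Txnrd1 had the lowest fitted value in the hnRNPU knockdown. It was at 102 and 121 CPM with hnRNPU sh1 and sh2, against 212 CPM with hnRNPU shCTL. Both hairpins lay below all 3 control libraries, as those of 21.9% of all genes did. Its log2 fold change was -0.93 (SE 0.55; unadjusted p = 0.0900, adjusted p = 0.611 in edgeR). The peroxidases and Prdx2 were again on the lower side. Prdx2 was at 955 and 959 CPM, against 1456 CPM in the control (-0.61 on the log2 scale, SE 0.63). Gpx4 was at 173 and 152 CPM, against 244 CPM (-0.59, SE 0.58), and Gpx1 was at 2189 and 1699 CPM, against 2439 CPM (-0.33, SE 0.66). These 3 had adjusted p-values between 0.805 and 0.907 in edgeR. Only against the control library of the other experiment, Bloodlinc shCTL, did Gpx4 pass, with a log2 fold change of -2.59.

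Among Gclc, Gclm and Slc7a11, the glutathione supply genes of the 10, only Slc7a11 had both hairpins above the control. Slc7a11 was at 149 and 83.5 CPM with hnRNPU sh1 and sh2, against 66.2 CPM with hnRNPU shCTL. No other of the 10 had both hairpins above the control (log2 fold change 0.81, SE 0.56; adjusted p = 0.691 in edgeR). Gclc was at 1395 CPM with sh1 and at 530 CPM with sh2, against 533 CPM in the control. The log2 fold change of Gclc was 0.85 (SE 0.64; adjusted p = 0.720), and without hnRNPU sh1 it was -0.02. Gclm was at 527 and 410.5 CPM, against 455 CPM, and Cat was at 1377 and 803 CPM, against 899 CPM. For both, sh1 lay above the control and sh2 below it. Sod1 was at 158 and 102.0 CPM, against 133 CPM, and Nfe2l2 was at 110.5 and 69.7 CPM, against 77.3 CPM. After TMM scaling sh1 was the higher hairpin in Cat, Sod1, Nfe2l2, Gclc, Gclm, Slc7a11, Gpx1 and Gpx4, but not in Prdx2 or Txnrd1. For Gpx1, Gpx4 and Gclm this order came only with the TMM factors, 0.577 for sh1 and 0.972 for sh2. Their raw counts with sh1 and sh2 were 3704 and 4314, 293 and 386, and 891 and 1042. Raw counts of Sod1 (267 and 259) and Nfe2l2 (187 and 177) were nearly level, in libraries of 2931627 and 2612916 counts. Raw counts of Cat, Gclc and Slc7a11 were higher with sh1. The hnRNPU sh1 library also had the higher share of counts outside genes and the higher sums of granulocyte and erythroid markers. The erythroid sum was 101704 and 55915 CPM with hnRNPU sh1 and sh2, against 63865 CPM with hnRNPU shCTL. Of 12 erythroid markers, 7 had a fitted change below 0, with a median of -0.31 and 0 past the threshold. The part of any of these in the values of the 10 genes was not tested.

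The difference of the knockdown effects, hnRNPU minus Bloodlinc, was tested as its own contrast in the same fit. It passed for 0 of the 10 genes, where 0.326% of all genes passed. At an unadjusted p under 0.05 there were 2 of the 10, where there were 4.11% of all genes. These were the pair of genes that were lowest in the Bloodlinc knockdown. The Bloodlinc change is subtracted in this contrast, so that match is no separate support. For Slc7a11 the difference was 2.18 (log2, SE 0.77; unadjusted p = 0.00503, adjusted p = 0.422 in edgeR), with both hnRNPU hairpins above their control and both Bloodlinc hairpins below theirs. For Gclc it was 2.15 (SE 0.88; unadjusted p = 0.0151, adjusted p = 0.773). The difference lay above 0 for 7 of the 10 genes (9 with DESeq2's size factors or upper quartile scaling), with a median of 0.35, while that of all genes tested was -0.30 and 38% of them lay above 0.

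In the library with the Bloodlinc overexpression vector, these genes lay close to their levels with the empty vector. Whether the vector raised Bloodlinc was not checked here. With 1 library per arm there is no replicate check and no test. The differences ran between -0.15 for Nfe2l2, at 63.6 CPM with the Bloodlinc vector, against 70.8 CPM with the empty vector, and 0.14 for Txnrd1, at 143 CPM, against 130 CPM. The 95% counting interval was -0.23 to -0.08 for Nfe2l2 and 0.09 to 0.19 for Txnrd1. Of the 10 genes, 0 were past 2-fold, where 1.75% of all genes were, and 0 were past 1.5-fold, where 8.54% were. The log2 difference was above 0 for 8 of the 10, and for 51.3% of all genes. Slc7a11 was at 42.7 CPM, against 39.7 CPM, and Gclc was at 353 CPM, against 342 CPM. Gpx1 was at 783 CPM, against 747 CPM. Both vector libraries were the lowest of the 8 for Cat, Prdx2, Gpx1 and Gpx4, whichever vector they carried.

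Genes around these 10 were read from lists of the same pathways. Of the partners and regulators of Nrf2, such as Keap1, its repressor, and Bach1, a competitor at the same elements, 14 of 15 were tested. In the Bloodlinc knockdown 8 of these were below 0, as 44.6% of all genes tested were, and 0 passed. In the hnRNPU knockdown 7 were below 0, as 53.4% of all genes tested were, and 0 passed. The most abundant, Sqstm1, encodes p62, an autophagy receptor that binds Keap1. It was at 511 and 519 CPM with Bloodlinc sh1 and sh2, against 747 CPM in their control (log2 fold change -0.54, SE 0.60). With hnRNPU sh1 and sh2 it was at 1424 and 496 CPM, against 376 CPM (1.35, SE 0.65; unadjusted p = 0.0390, adjusted p = 0.468 in edgeR).

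Of 20 other Nrf2 target genes, 10 were below 0 and 0 passed in the Bloodlinc knockdown, where 44.6% of all genes lay below 0. In the hnRNPU knockdown 15 were above 0, as 45.7% of all genes were. There 1 passed, where 0.58% of all genes passed on the higher side. The 1 that passed was Hmox1, which encodes haem oxygenase 1, the enzyme that breaks down haem. Hmox1 was at 1335 and 487 CPM with hnRNPU sh1 and sh2, against 166 CPM with hnRNPU shCTL, with both hairpins above all 3 controls, as 16.2% of all genes were. Markers of macrophages, a cell type that also makes Hmox1, summed to 75.7 and 31.1 CPM with hnRNPU sh1 and sh2, against 21.4 CPM with hnRNPU shCTL. Of these 11 markers, however, 7 were at 0 counts with hnRNPU sh1 and 4 with sh2, against 2 with hnRNPU shCTL, so few genes make up the sum. The median log2 fold change of the 9 markers tested was 1.20 with 0 past the threshold, and some of the 9 had few or no counts. The part of the macrophage markers, like that of the granulocyte markers, was not tested. Hmox1 rose by 2.45 on the log2 scale (SE 0.67; adjusted p = 0.0389 in edgeR). The call was lost in edgeR without hnRNPU sh1 (log2 fold change 1.54, adjusted p = 1), without hnRNPU sh2 (adjusted p = 0.0575), without Bloodlinc sh1 (adjusted p = 0.219) and without Bloodlinc sh2 (adjusted p = 0.174). In all it was lost under 12 of 17 alternatives, with adjusted p-values between 0.000163 and 1, while the value stayed above 0 under all 17. With Bloodlinc sh1 and sh2, Hmox1 was at 81.6 and 60.1 CPM, against 95.7 CPM. Ftl1, the ferritin light chain and the most abundant of these targets, was at 684 and 870 CPM with Bloodlinc sh1 and sh2, against 1126 CPM in their control (log2 fold change -0.54, SE 0.63), and did not pass.

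In the other lists 0 genes passed in either knockdown. Of all genes tested, 44.6% lay below 0 in the Bloodlinc knockdown. In the hnRNPU knockdown 53.4% lay below 0 and 45.7% above 0, with TMM scaling. Of 9 other peroxidases and dismutases tested, 5 were below 0 in each knockdown. The most abundant of them, mitochondrial Prdx3, had log2 fold changes of -0.21 (SE 0.58) in the Bloodlinc knockdown and -0.67 (SE 0.57) in the hnRNPU knockdown. Of 14 genes of thioredoxin, glutaredoxin and methionine sulfoxide repair, 6 and 9 were below 0 in the Bloodlinc and hnRNPU knockdowns. Glrx5, which serves iron-sulfur cluster assembly, led this list in abundance (-0.33, SE 0.57, and -0.98, SE 0.56). Of 13 tested genes of glutathione synthesis, recycling and cystine transport, 9 were below 0 in the Bloodlinc knockdown and 10 were above 0 in the hnRNPU knockdown. Their medians were -0.39 and 0.34. Slc3a2, the partner chain of Slc7a11 in the transporter, had log2 fold changes of -0.20 (SE 0.58) and 0.52 (SE 0.60).

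Of 12 genes of NADPH supply, which recycles glutathione and thioredoxin, 5 were below 0 in each knockdown, and Taldo1 of the pentose phosphate pathway had values of -0.25 (SE 0.60) and 0.23 (SE 0.61). Of 14 genes of selenoprotein synthesis and other selenoproteins, 7 were below 0 in the Bloodlinc knockdown and 12 in the hnRNPU knockdown. The shares of all genes tested below 0 were 44.6% and 53.4%, with TMM scaling. Selenot, the most abundant, had -0.11 (SE 0.56) in both, and lay above 0 in the hnRNPU knockdown with those other scalings. Of 15 ATF4 target genes, a stress programme that also drives Slc7a11, 12 were below 0 in the Bloodlinc knockdown and 8 in the hnRNPU knockdown. Asns, asparagine synthetase, had -0.42 (SE 0.60) and -0.85 (SE 0.60).

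**Figure D4:**
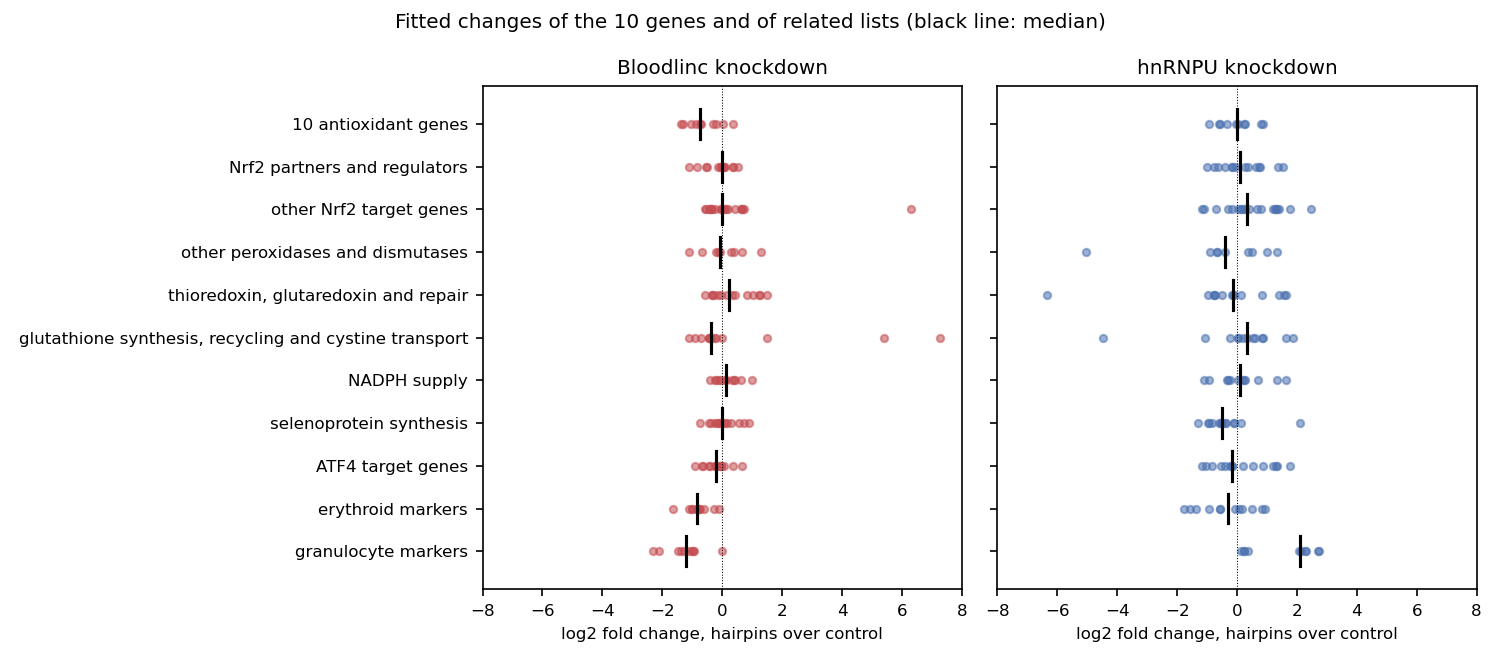
Fitted log2 fold change, hairpins over control (horizontal axis), of every tested gene (points) of the 10 antioxidant genes, of related lists and of 2 marker lists, with the median of each list as a black line. In the Bloodlinc knockdown the medians of the 10 genes (-0.73) and of the erythroid markers (-0.83) both lie below 0, and in the hnRNPU knockdown the granulocyte markers have a median of 2.11.

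The patterns of Nfe2l2 and Slc7a11 over the 8 libraries were also set beside those of the other 15354 genes tested, as log2 CPM centred on each gene's mean. The genes most like Nfe2l2 were Tmem143, Gpr108 and Pip4p1, with root mean square differences of 0.105, 0.114 and 0.135 log2 units. The genes most like Slc7a11 were 5330416C01Rik, Lgmn and Hspa13, at 0.196, 0.198 and 0.233 log2 units. These are descriptions with no test.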

How the data were processed

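The authors deposited raw counts per gene, 1 table for each of the 8 libraries, with 37620 Ensembl gene IDs; HTSeq's summary entries were kept out of library sizes and tests. RNA came from total RNA depleted of ribosomal RNA, and libraries were made with dUTP strand marking, per the labels' protocols. The submitters' processing notes name TopHat2 2.0.11, HTSeq and the build mm9. Which gene annotation HTSeq read, and whether it used strand, is not given in the sources used here.

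Symbols, exon lengths and overlaps came from GENCODE M21 on GRCm38, which matched 87.4% of the IDs; 1 of 176 entries of the gene lists was unmatched. Promoter windows came from RefSeq.

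All 8 libraries, in the 6 groups of the labels, were fitted together in edgeR 4.0.16 under R 4.3.3, with TMM scaling, filterByExpr on the groups, quasi-likelihood F-tests and Benjamini-Hochberg adjustment over 15355 genes at 0.05. The spread came only from pairs of hairpins against 1 target, with 2 residual degrees of freedom, 397 prior ones and a common dispersion of 0.145, so single control libraries were assumed to vary like the hairpins. The SE is the size of a log2 fold change divided by the square root of F. It rests mostly on the spread pooled over genes, and does not measure how close a gene's own 2 hairpins lay. For pairs of single libraries, log2 differences took a prior count of 2, with a 95% exact conditional binomial interval, which covers counting error only; a count of 0 allows up to 3 counts. That limit lay between 0.0869 and 0.127 CPM in 6 libraries and at 1.02 and 1.15 in the hnRNPU hairpin libraries. The fit was tested on simulated data. Alternatives were DESeq2 1.42.0, limma-voom (limma 3.58.1), other scalings, filters, controls and depths, and hairpin libraries left out in turn. The fit without the vector libraries was added after the data were seen.

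The 10 genes, the lists and the tests were chosen with earlier results of these data known. All 10 genes are named, and from each other list up to 2 genes that passed, by size of change, or the most abundant one where none passed. Of the macrophage, megakaryocyte and hepatocyte lists 0 passed, and no gene of theirs is named. Of the granulocyte list 0 passed in the Bloodlinc knockdown. Ngp and Ltf are named from the hnRNPU knockdown, and Ngp is also given with its Bloodlinc values.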

Additional observations from a re-analysis of the deposited data

Results flagged for a closer look

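For 4 of the genes named, both hairpins of 1 target lay above their control and both hairpins of the other target below theirs. For 1 of them the difference itself, hnRNPU minus Bloodlinc, passed edgeR's test, as it did for 0.326% of all genes tested. Ngp and Hmox1 were named because they passed in the hnRNPU knockdown, which enters this difference, so their flags are no separate support. Of the 10 granulocyte markers, 4 passed in the difference. The log2 difference of effects was 4.20 for the granulocyte marker Ngp (adjusted p = 0.00402), with both hnRNPU hairpins above their control and both Bloodlinc hairpins below theirs. Ngp was at 1602 and 492 CPM with hnRNPU sh1 and sh2, against 158 CPM, and at no more than 1.71 CPM with the Bloodlinc hairpins, against 3.74 CPM. For Slc7a11 the hairpins were placed in the same way, and the difference of 2.18 did not pass (adjusted p = 0.422). The same held for Sqstm1, with a difference of 1.89 (adjusted p = 1), and for Hmox1, with 2.89 (adjusted p = 0.169).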

How the results depend on the processing

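Of the 10 genes, 0 passed in the Bloodlinc knockdown under all 18 alternatives, in the hnRNPU knockdown under 16 of 17 and in the difference under all 15. The exceptions were 1 gene (Gpx4) in the hnRNPU knockdown with the other control hairpin library, and 3 genes past 2-fold (Gpx1, Prdx2 and Gpx4, lower) when the Bloodlinc vector was set against the mean of the 3 control libraries, which mixes experiments. The median in the Bloodlinc knockdown stayed between -0.76 and -0.16, and in the hnRNPU knockdown it lay between -0.28 and 0.24. No alternative moved the Bloodlinc sign of Cat, Gpx1, Nfe2l2, Gclc, Gclm or Slc7a11. No paired analysis was possible because the hairpin numbers name hairpins against different targets and each control is 1 library.

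Signs turned as follows, and the cause was not tested. In the Bloodlinc knockdown, the other control hairpin gave Prdx2 0.13, Gpx4 1.25, Sod1 -0.32, Sqstm1 0.46, Glrx5 0.088, Taldo1 0.53, Selenot 0.37 and Asns 1.16. The 3 controls pooled gave Prdx2 0.080, Gpx4 0.38, Sod1 -0.071, Sqstm1 0.076, Glrx5 0.27, Taldo1 0.42, Selenot 0.11 and Asns 0.50. Sod1 was at -0.014 with DESeq2 and with its size factors. In the hnRNPU knockdown, Sod1 was at 0.12 with DESeq2 and with its size factors, 0.15 with upper quartile scaling, 0.18 at 5 CPM, 0.21 with pooled controls, 0.13 thinned, 0.29 with the other control and 0.13 with 3 libraries. Selenot was at 0.045 with DESeq2 and with its size factors, 0.081 with upper quartile scaling, 0.10 at 5 CPM, 0.20 thinned and 0.061 with 3 libraries. Gclm was at -0.0062 without the 20 most abundant IDs and at -0.011 without a filter, and Taldo1 at -0.54 with the other control. In the difference, Sod1 was at 0.13 with DESeq2, its size factors, upper quartile scaling and 5 CPM, 0.28 with pooled controls and 0.034 thinned. Nfe2l2 was at 0.030 with DESeq2 and with its size factors, 0.027 with upper quartile scaling and 0.024 at 5 CPM. Pooled controls gave Prdx2 -0.74, Gpx1 -0.27 and Gpx4 -1.84.

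With each hairpin library left out in turn, and the lone hairpin assumed to vary like the other pair, values ran in the Bloodlinc knockdown between -0.18 and 0.21 for Sod1, between -0.95 and 0.28 for Txnrd1, between -0.53 and 0.073 for Prdx3, between -0.43 and 0.018 for Slc3a2 and between -0.66 and 0.097 for Taldo1. In the hnRNPU knockdown they ran between -0.17 and 0.61 for Cat, between -0.40 and 0.24 for Sod1, between -0.16 and 0.51 for Nfe2l2, between -0.016 and 1.38 for Gclc, between -0.16 and 0.21 for Gclm, between -0.080 and 0.94 for Slc3a2 and between -0.088 and 0.92 for Hbb-bs. In the difference they ran between -0.031 and 0.21 for Prdx2, between -0.43 and 0.22 for Sod1, between -1.23 and 0.035 for Txnrd1 and between -0.56 and 0.14 for Nfe2l2.

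Counts over all genes ran between 0 and 1043 in the Bloodlinc knockdown (19 as reported), 7 and 2340 in the hnRNPU knockdown (135) and 1 and 444 in the difference (50). DESeq2 gave 5, 100 and 16, limma-voom 0, 9 and 3, and the other control 1043 and 2340. DESeq2's size factors moved the median of all genes in the hnRNPU knockdown to 0.03, against -0.09, and 6 of the 10 genes then lay above 0.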
